A study of Mus musculus with 9 samples.

Results

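Trp53, the gene of the p53 tumor suppressor, and 31 genes known as p53 targets were followed across 9 RNA-seq libraries of mouse mammary epithelial cells. The 32 genes were chosen by name from knowledge of the pathway, with earlier results of these data already known. All 32 were found among the 23951 gene rows of the deposited table. Of these, 27 reached 1 FPKM in at least 3 libraries and are among the 9503 genes tested. The libraries came from female mice of mixed genetic background that carried a Cre-activated yellow fluorescent protein reporter at Rosa26 (R26Y). All mice, controls included, received an adenovirus with Cre under a keratin 8 promoter (Ad-K8-Cre) into the mammary ducts, and YFP-positive cells were sorted 1 month later. The 3 genotypes had 3 libraries each: R26Y alone (wild-type, WT), R26Y with floxed Trp53 (labelled p53-null) and R26Y with floxed Trp53 and floxed Brca1 (labelled p53/Brca1-null). The labels give no age, and do not say whether replicates came from separate mice, so a p-value here reflects only how far these libraries scatter, which may be technical.

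p53 is a transcription factor that is kept low in unstressed cells because MDM2, the product of one of its own targets, marks it for degradation. DNA damage and other stress release it, and it then switches on genes for cell cycle arrest, cell death, DNA repair and metabolic adjustment. Many of its targets keep some expression without p53, since other factors also act on their promoters. In the mammary gland, loss of p53 together with BRCA1, a protein of homologous recombination, is a widely used mouse model of BRCA1-linked breast cancer.

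p53 binds DNA as a tetramer at pairs of 10-base elements, and the promoters of the members were searched for such pairs because this is the sequence feature the genes could share. An element was read as 3 purines, C, A or T at the next pair of positions, G, and 3 pyrimidines, a pattern that is the same on both strands. A match was 2 elements with at most 1 base between them and at most 3 mismatches, none of them in the 4 core bases from C to G. RefSeq promoter windows (GRCm38.p6, 250 bases before to 50 after each gene start) were found for 25 of the 32 members, and 6 of those 25 held a match. Among all 27025 genes with a window, 1.23% held one. The members were chosen as known targets, and the search limits after others had been seen, so these shares are no independent test. The table of expression values was made on mm9, so these coordinates belong to the RefSeq windows alone. The matched stretches are shown 5′ to 3′ on the gene's strand. The pair of elements is in capitals, as is the 1 base between those of Bax, with 5 flanking bases on each side.
Cdkn1a, chr17:29090923-29090952, plus strand, 1 mismatch: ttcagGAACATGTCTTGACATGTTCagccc
Bax, chr7:45467074-45467104, minus strand, 2 mismatches: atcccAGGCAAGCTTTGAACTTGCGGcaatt
Bbc3, chr7:16309481-16309510, plus strand, 3 mismatches: cccgaCTGCAAGCCCCGACTTGTCCccagc
Aen, chr7:78895932-78895961, plus strand, 3 mismatches: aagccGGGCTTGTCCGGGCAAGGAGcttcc
Trp53, chr11:69580279-69580308, plus strand, 3 mismatches: cggaaGGACTTGCCCTTACTTGTTAtggcg
9630033F20Rik, chr6:127109741-127109770, minus strand, 3 mismatches: gcggcGGTCTAGCTCTGGCAAGACTccagg
The Cdkn1a stretch begins 51 bases before the upstream of its listed starts and has the fewest mismatches of the 6. A match describes letters only, and these data hold no measure of p53 binding.

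The values were taken as FPKM, fragments per kilobase of transcript scaled to library size, although the header of the table does not name the unit. If so, levels of different genes can be set side by side. Read depth is unknown. Relative depth was estimated from the most common ratio to p53-null replicate 3 among genes between 0.01 and 0.2 FPKM in both libraries. It came to 0.787 for WT replicate 1 and 0.971 to 1.11 for the other libraries. The estimate is rough, since the most common ratio was held by only 14 to 30 genes. Small ratios were left out beforehand, so a depth far above that of p53-null replicate 3 could not have come out. Genes at 1 FPKM or more numbered 4839 in WT replicate 1, 7320 and 6105 in the other WT libraries, 6286 to 9767 in p53-null cells and 7332 to 8213 in p53/Brca1-null. An exact 0 may be a failed estimate, so values of 0 are given library by library. Of 10 luminal markers, 7 to 10 were at 1 FPKM or more in each library. Immune markers were present too, with 9 to 11 of 12 at 1 FPKM or more. Their summed level was 2449 to 7227 FPKM in WT, 2578 to 5749 in p53-null cells and 8148 to 13287 in p53/Brca1-null. The luminal markers summed to 5541 to 8736, 3503 to 14745 and 4465 to 6657 FPKM. The immune sum exceeded the luminal sum in every p53/Brca1-null library and in WT replicate 3, and in none of the others. These sums cover different genes, so they do not give shares of cells.

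WT replicate 1 stood apart and tracked WT replicate 2. Of the 24 tested members at 1 FPKM or more in WT replicate 2, 15 lay in WT replicate 1 at 5 to 15% of that level, among them Mdm2 at 9.56%, Bax at 10.3%, Trp53 at 10.8% and Gdf15 at 8.63%. In the 71 other ordered pairs of libraries at most 10 members lay in that window. Over all tested genes the share was 54.5% for this pair and 2.13 to 21.3% for the others. Genes at 20 FPKM or more in WT replicate 2 were rarely at 0 in WT replicate 1 (0.364%), against 2.64 to 5.82% of genes that high in other libraries. The cause was not tested. Perp, at 66.6 and 31.6 FPKM in WT replicates 1 and 2, Sesn2 at 39.5 and 9.54, and Plk3 at 18.8 and 23.0 did not follow this ratio. Since low values in WT replicate 1 pull the WT mean down, the differences of single members from WT are followed by their values without it. For the further lists and the cell type markers no values without it are given.

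**Figure D1:**
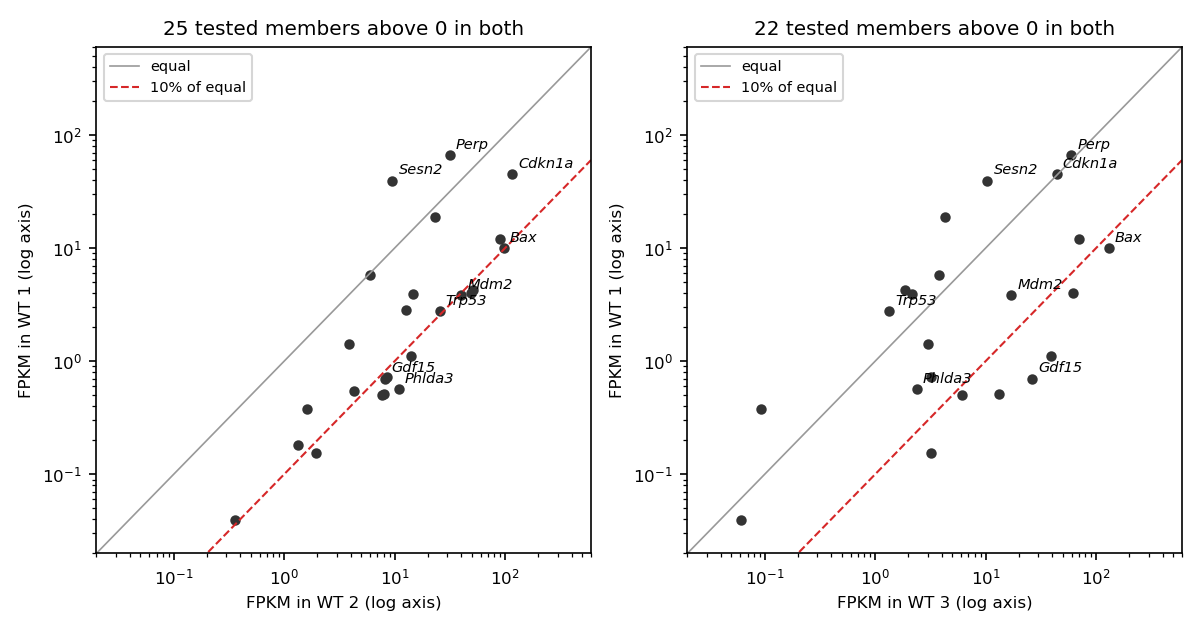
FPKM of tested members in WT replicate 1 (vertical, log axis) against WT replicate 2 (left) and WT replicate 3 (right), 1 point per gene above 0 in both libraries. Many of the 25 points on the left lie along the dashed line at 10% of the WT replicate 2 level, with Perp and Sesn2 above the line of equality, while the 22 points on the right are more spread.

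The members covered a wide range of levels. Bax, Cdkn1a, Plk2, Gdf15 and Perp averaged over 50 FPKM across the 9 libraries, at 126, 108, 85.8, 71.6 and 55.0. In all, 14 members averaged 10 FPKM or more, and 11 were at 1 FPKM or more in every library: Mdm2, Ccng1, Cdkn1a, Btg2, Plk2, Plk3, Bax, Aen, Perp, Trp53inp1 and Abhd4. The 5 members not tested were Apaf1, Zmat3, Eda2r, 9630033F20Rik and Ddit4l. Apaf1, Zmat3 and Eda2r fell just short with 2 libraries at 1 FPKM or more, and Rrm2b and Sesn1 just passed with 3. Rrm2b passed through the 3 WT libraries alone, so it had to be higher there, and Sesn1 through 3 null libraries alone, so it had to be higher in those. Of the 32 members, 13 were listed at 0 in at least 1 library.

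**Figure D2:**
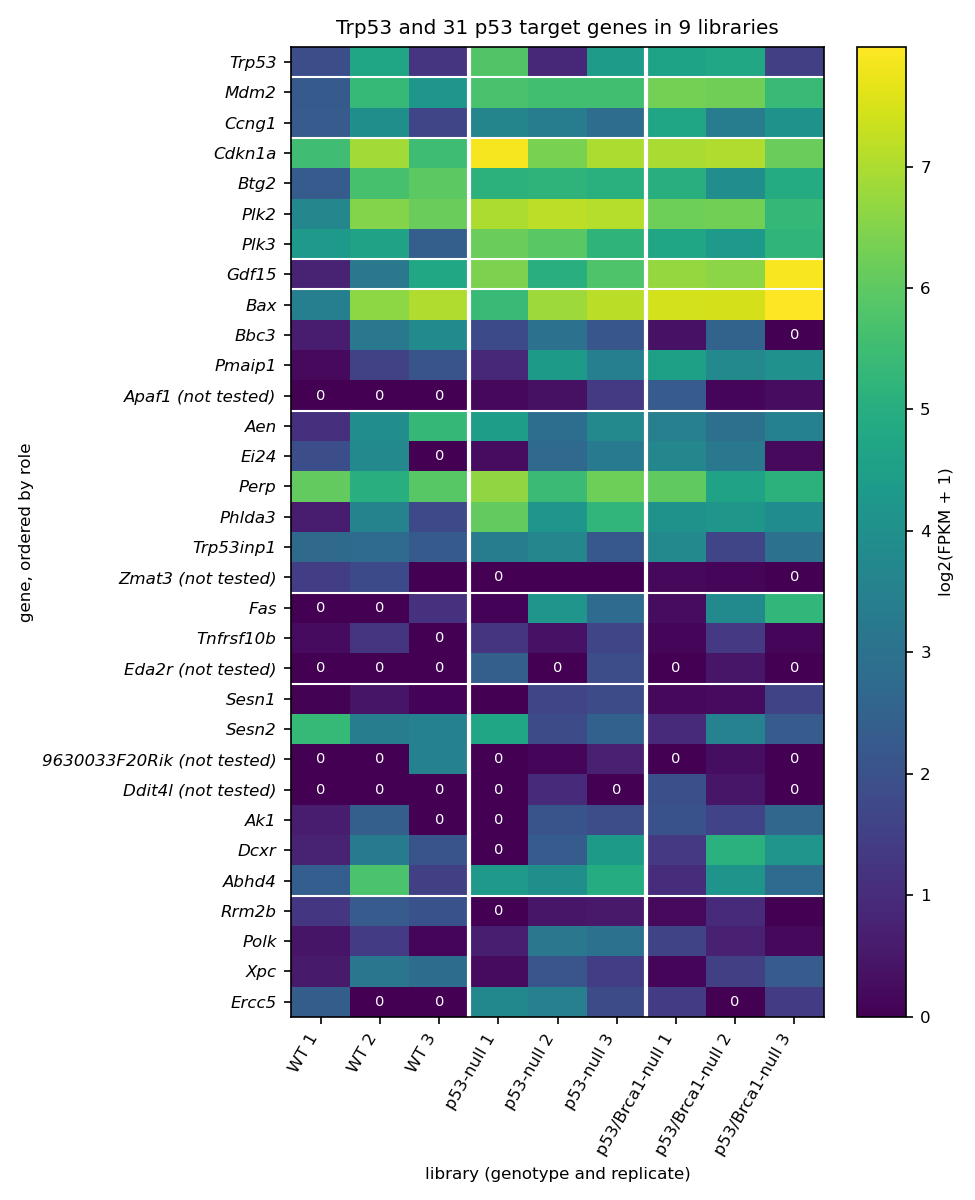
log2(FPKM + 1) of the 32 members (rows, ordered by role) in the 9 libraries (columns, replicates 1 to 3 of each genotype). Digits mark values of exactly 0. Cdkn1a, Plk2, Bax and Perp are bright in nearly all columns, and the WT 1 column is dark for most genes but not for Perp, Sesn2 and Cdkn1a.

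No member passed in any of the 3 comparisons by limma, whose adjusted p-values run over all 9503 tested genes. For p53-null against WT that is 0 of 27 members beside 0.0105% of all tested genes. The comparison of p53/Brca1-null with WT called 0.253% of all genes, and that of the null genotypes with each other called 0%. At an unadjusted p under 0.05 the members counted 6 in the first comparison (11.7% of all genes), 7 in the second (12.2%) and 0 in the third (4.74%). As shares of the 27 members these are 22.2%, 25.9% and 0%. Without WT replicate 1 they were 4 of 26 members (15.4%, against 9.12% of all genes) for p53-null and 3 of 26 (11.5%, against 9.98%) for p53/Brca1-null. Rrm2b, whose lower level in null libraries the filter fixed, is 1 of the 6 and 1 of the 7, and is not among the 26. The first and second comparison share the WT libraries, and the third shares libraries with both.

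Relative to WT the members lay mostly higher, as did genes in general. In p53-null 23 of 27 were higher (85.2%, against 70.2% of all genes). The members' median log2 difference was 0.75, beside 0.58 over all genes. But with quantile normalization 14 were higher and 13 lower, with a median of 0.05 against -0.04. In p53/Brca1-null 19 were higher (70.4%, against 63.6% of all genes) and 8 lower, with a median of 0.48 against 0.41 for all genes. With quantile normalization 13 were higher and 14 lower. Between the null genotypes 11 were higher (40.7%, against 42.9% of all genes) and 16 lower in p53/Brca1-null. The median was -0.37 against -0.16 for all genes, and 13 were higher and 14 lower with quantile normalization. Without WT replicate 1 the members higher and lower than WT numbered 19 and 7 in p53-null, and 17 and 9 in p53/Brca1-null. The shares higher were then 73.1% against 62.3% of all genes, and 65.4% against 57.0%. The estimates are wide: the 95% interval of a member reached 2.04 to either side of its log2 difference at the median.

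**Figure D3:**
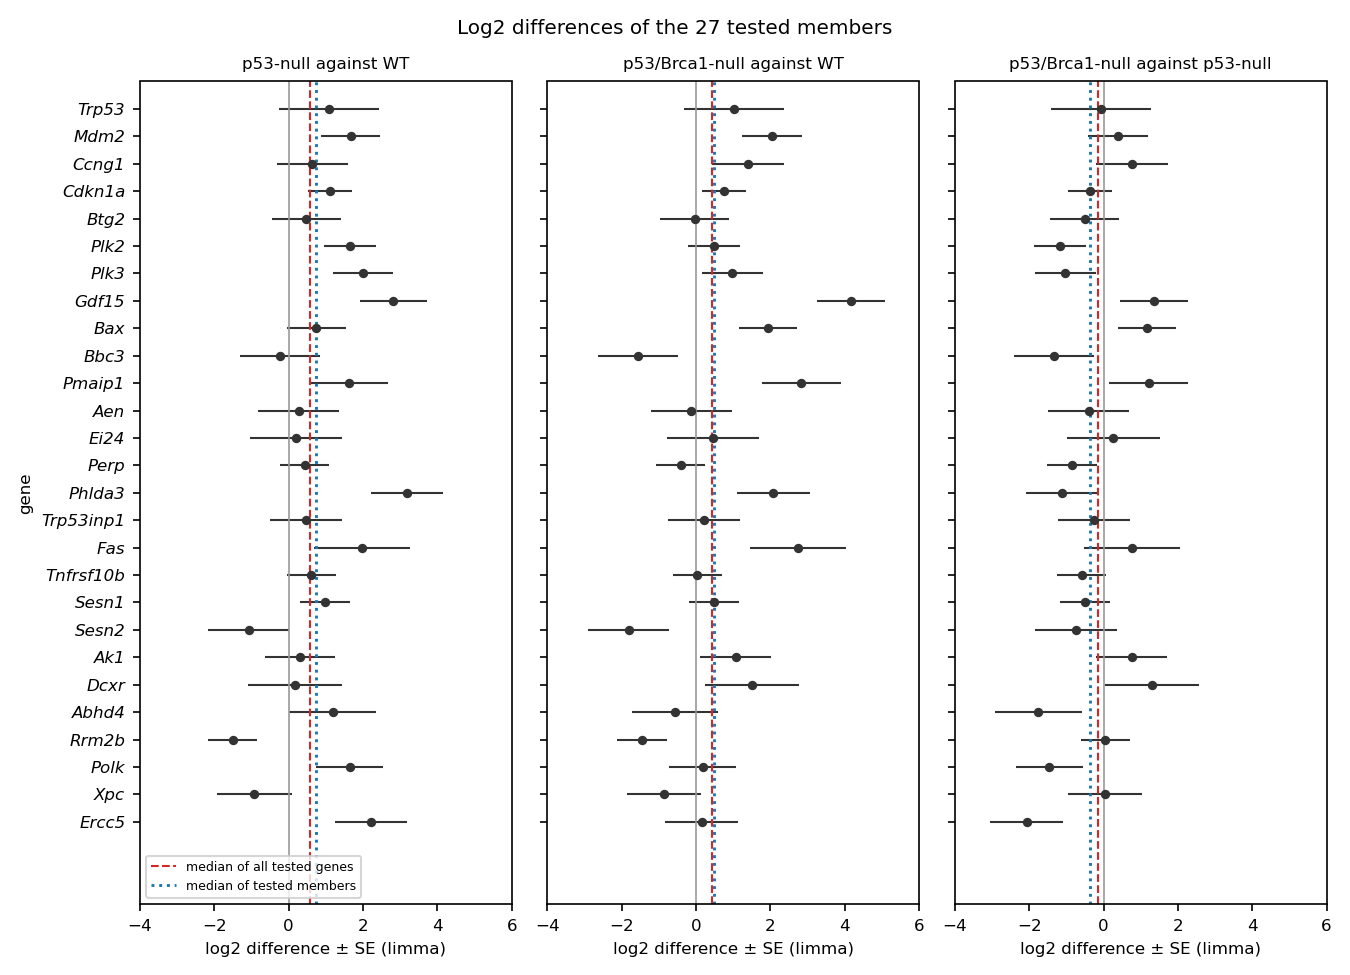
log2 difference of each of the 27 tested members in the 3 comparisons (points) with its standard error from limma (bars), in log2(FPKM + 1) units. Dashed and dotted lines mark the medians of all tested genes and of the tested members. In the 2 comparisons with WT most points lie right of 0, as does the median of all genes, and Gdf15 and Phlda3 lie beyond 2 in both.

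Trp53 itself varied more within than between genotypes. In WT it measured 2.77, 25.5 and 1.35 FPKM, in p53-null 55.7, 0.858 and 20.3, and in p53/Brca1-null 23.7, 26.5 and 1.88. Each genotype thus had a library under 3 FPKM and one over 20 FPKM, and the ranges overlap. The log2 difference from WT was 1.09 (95% interval -1.77 to 3.95) in p53-null (adjusted p = 0.784, limma) and 1.02 (-1.84 to 3.88) in p53/Brca1-null (adjusted p = 0.789, limma). Without WT replicate 1 the differences were 0.73 and 0.66, and over each library left out they ranged from 0.0283 to 2.49 and from 0.32 to 2.08. Between the null genotypes it was -0.07 ± 1.35 (SE, adjusted p = 1.00, limma), and this sign turned with quantile normalization. A value per gene also counts fragments from exons that Cre leaves in place, so it does not check the genotypes, and the groups are called by their labels.

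Mdm2, the ubiquitin ligase that restrains p53, was lower in WT than in either null genotype. It measured 3.83, 40.0 and 17.1 FPKM in WT, 50.2, 46.7 and 45.9 in p53-null cells and 79.1, 74.8 and 41.1 in p53/Brca1-null. Every library of the null genotypes exceeded the highest WT library, and the p53-null libraries were close together (47.6 ± 2.29, SD, n = 3). The log2 difference was 1.67 ± 0.80 (SE) for p53-null (adjusted p = 0.430, limma) and 2.05 ± 0.80 for p53/Brca1-null (adjusted p = 0.331, limma). These became 0.83 and 1.22 without WT replicate 1. Between the null genotypes Mdm2 differed by 0.39 ± 0.80 (adjusted p = 1.00, limma). Ccng1, cyclin G1, which acts with MDM2 in the same feedback, overlapped across genotypes, at 2.15 to 14.8 FPKM in WT, 6.27 to 11.4 in p53-null cells and 9.11 to 24.9 in p53/Brca1-null.

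Of the arrest genes, Cdkn1a encodes p21, the inhibitor of cyclin-dependent kinases that carries out p53-dependent arrest. It measured 45.1, 116 and 44.0 FPKM in WT, 233, 82.2 and 126 in p53-null cells and 123, 129 and 70.3 in p53/Brca1-null. Libraries of the 3 genotypes overlapped, and none of the 6 libraries labelled as null was below 70 FPKM. The log2 difference was 1.11 ± 0.58 for p53-null (adjusted p = 0.467, limma) and 0.75 ± 0.58 for p53/Brca1-null (adjusted p = 0.623, limma). Its 95% interval in p53-null ran from -0.12 to 2.35. The differences were 0.90 and 0.53 without WT replicate 1, and without p53-null replicate 1 the first was 0.72. Between the null genotypes it was -0.37 ± 0.58 (adjusted p = 1.00, limma).

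The polo-like kinases Plk2 and Plk3, which act in stress and damage checkpoints, were highest in p53-null. Plk2 measured 12.01, 90.6 and 70.3 FPKM in WT, 128, 146 and 137 in p53-null cells and 73.3, 76.2 and 38.9 in p53/Brca1-null. The p53-null libraries lay above all others. Against WT the log2 difference was 1.65 ± 0.70 (adjusted p = 0.371, limma), which became 0.77 without WT replicate 1, and p53/Brca1-null lay -1.17 ± 0.70 from p53-null (adjusted p = 1.00, limma). Plk3 measured 18.8, 23.0 and 4.33 FPKM in WT, 70.7, 60.8 and 35.6 in p53-null cells and 24.6, 19.2 and 36.3 in p53/Brca1-null. It was 2.0 ± 0.81 higher on the log2 scale in p53-null than in WT (adjusted p = 0.352, limma), 2.27 higher without WT replicate 1 and 1.32 higher without WT replicate 3. Btg2, an antiproliferative gene that also answers to growth factors, went the other way where WT replicate 1 is set aside: 4.02, 49.7 and 61.3 FPKM in WT, 33.7, 35.4 and 32.6 in p53-null cells and 31.1, 14.2 and 29.3 in p53/Brca1-null.

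Gdf15, a secreted stress cytokine, had the smallest p of the members in the comparison of p53/Brca1-null with WT. It measured 0.702, 8.13 and 26.3 FPKM in WT, 84.1, 30.9 and 53.8 in p53-null cells and 105, 95.7 and 239 in p53/Brca1-null. The 3 genotypes did not overlap at all. The log2 difference from WT was 2.82 ± 0.91 in p53-null (adjusted p = 0.231, limma) and 4.17 ± 0.91 in p53/Brca1-null (adjusted p = 0.0676, limma), and 1.35 ± 0.91 between the null genotypes (adjusted p = 1.00, limma). It was the 1 member that passed under any other setting, in p53/Brca1-null against WT with quantile normalization (adjusted p = 0.0390, limma) and without WT replicate 3 (adjusted p = 0.0111, limma). Without WT replicate 1 the differences from WT were 1.75 in p53-null (adjusted p = 0.437, limma) and 3.10 in the other null genotype (adjusted p = 0.0947, limma). The summed immune markers given above were also highest in p53/Brca1-null. At an unadjusted p under 0.05, 5 of 11 tested markers were higher than in WT, as were 964 of all 9503 genes. At the same p 8 of 11 were higher than in p53-null, as were 176 of all 9503 genes. Of the 11 markers 10 were higher than in WT. H2-Aa, an MHC class II gene named after its values were seen, was the 1 of these markers that passed at an adjusted p under 0.05 (log2 difference 2.05, adjusted p = 0.0105, limma). Their part in the higher Gdf15, Mdm2, Bax, Pmaip1 and Fas values of that genotype was not tested. In sorted bulk cells more cells that express a gene and more RNA per cell cannot be told apart.

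**Figure D4:**
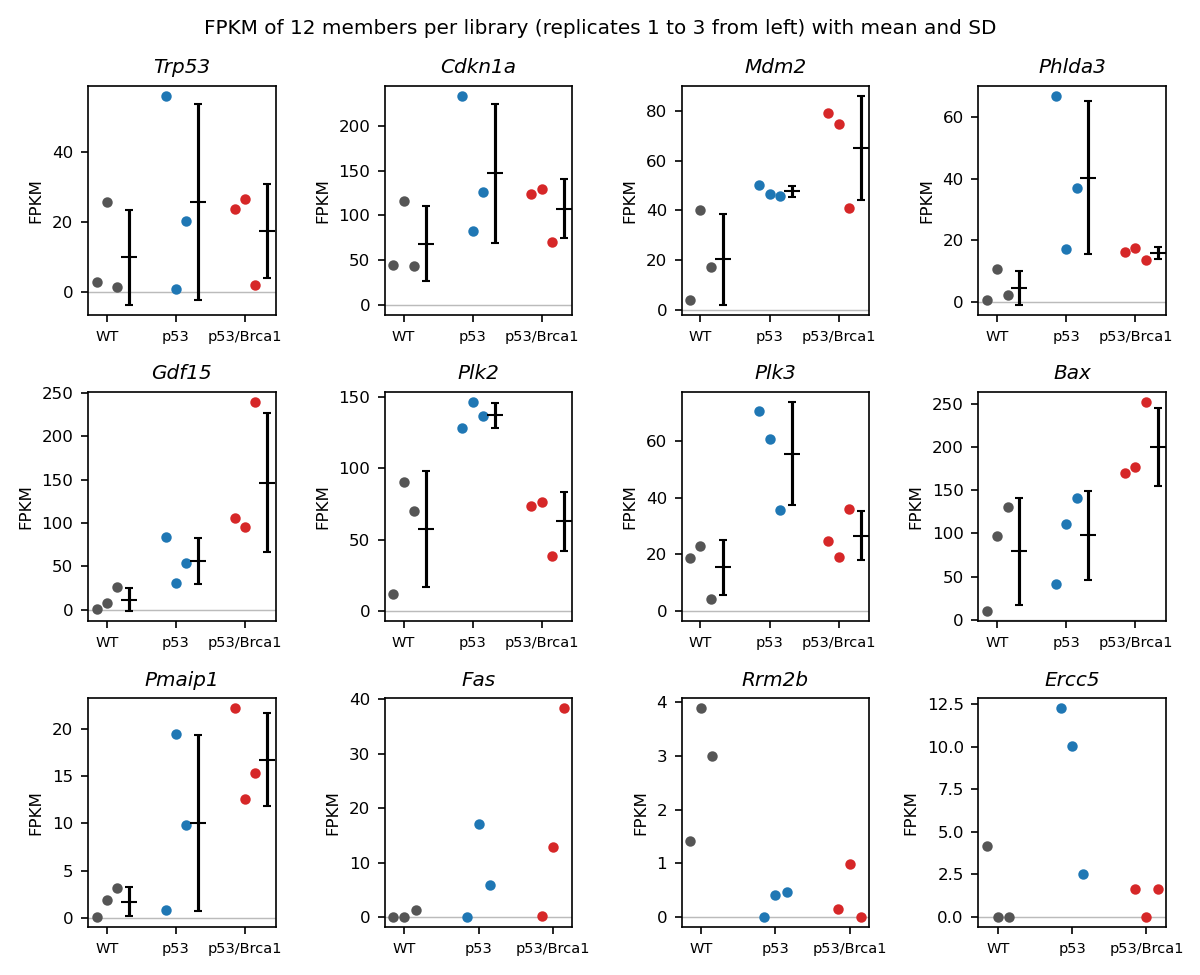
FPKM of 12 members in each library (points, replicates 1 to 3 from left within a genotype) with the mean and SD of the 3 libraries (black), left out for the 3 genes with a value of 0. The labels p53 and p53/Brca1 stand for p53-null and p53/Brca1-null. Mdm2, Phlda3 and Gdf15 show every null library above every WT library, Plk2 and Plk3 peak in p53-null, Bax and Pmaip1 in p53/Brca1-null, and Rrm2b is highest in WT.

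Of the mitochondrial death genes, those for BAX and NOXA lay above WT in every p53/Brca1-null library, and none passed the test. Bax, the pore former of the outer mitochondrial membrane, measured 10.01, 97.1 and 131 FPKM in WT, 41.2, 111 and 141 in p53-null cells and 171, 177 and 252 in p53/Brca1-null. All p53/Brca1-null libraries exceeded all others, while WT and p53-null overlapped. Its log2 difference from WT in p53/Brca1-null was 1.92 ± 0.78 (adjusted p = 0.344, limma) and became 0.80 without WT replicate 1. Against p53-null it was 1.17 ± 0.78 (adjusted p = 1.00, limma), and 0.65 without p53-null replicate 1. Pmaip1, which encodes the BH3-only protein NOXA, measured 0.155, 1.96 and 3.22 FPKM in WT, 0.883, 19.4 and 9.81 in p53-null cells and 22.1, 12.6 and 15.3 in p53/Brca1-null. The p53/Brca1-null libraries lay above WT, by 2.83 ± 1.06 on the log2 scale (adjusted p = 0.305, limma) and by 2.29 without WT replicate 1.

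Bbc3, which encodes the BH3-only protein PUMA, measured 0.508, 8.10 and 13.3 FPKM in WT, 2.44, 6.90 and 3.42 in p53-null cells and 0.304, 4.76 and 0 in p53/Brca1-null. Set beside WT replicates 2 and 3 alone, every null library was lower. Apaf1, the apoptosome scaffold, stood at 0 in the 3 WT libraries and measured 0.126, 0.281 and 1.57 FPKM in p53-null cells and 3.85, 0.0906 and 0.204 in p53/Brca1-null. These levels are low, and Apaf1 was not tested.

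Phlda3, a target that restrains AKT signalling, had the smallest p of the members in p53-null against WT. It measured 0.564, 10.9 and 2.38 FPKM in WT, 66.6, 17.3 and 37.1 in p53-null cells and 16.2, 17.5 and 13.6 in p53/Brca1-null. All null libraries lay above WT, and the p53-null and p53/Brca1-null ranges met near 17 FPKM. The log2 difference was 3.18 ± 0.98 in p53-null (adjusted p = 0.207, limma) and 2.07 ± 0.98 in p53/Brca1-null (adjusted p = 0.408, limma). They were 2.51 and 1.4 without WT replicate 1.

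The other death genes overlapped between all genotypes. Perp, a desmosome and death gene of stratified epithelia, was among the steadiest members, with its highest library 4.31 times its lowest: 31.6 to 66.6 FPKM in WT, 42.4 to 101 in p53-null cells and 23.3 to 64.0 in p53/Brca1-null. Trp53inp1, a stress protein that works with p53, ranged from 2.19 to 12.5 FPKM over the 9 libraries. The nuclease gene Aen measured 1.11, 14.0 and 39.0 FPKM in WT and lay between 6.34 and 21.3 in all null libraries. Ei24, an endoplasmic reticulum protein gene, ran from 0 to 12.6 FPKM in WT and from 0.146 to 11.9 in the null libraries. Zmat3, an RNA-binding protein gene, measured 1.75, 2.47 and 0.00733 FPKM in WT and at most 0.133 in the 6 null libraries, and was too low to be tested.

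Death receptors were low and uneven. Fas, the receptor for FAS ligand, was listed at 0 in WT replicates 1 and 2 and measured 1.22 FPKM in WT replicate 3. It measured 0.0563, 17.1 and 5.92 FPKM in p53-null cells and 0.196, 12.9 and 38.3 in p53/Brca1-null. In both null genotypes replicate 1 was within the WT range, and the log2 difference of p53/Brca1-null from WT was 2.74 ± 1.29 (adjusted p = 0.404, limma). It was 2.54 without WT replicate 1, 4.17 without p53/Brca1-null replicate 1 and 1.65 without p53/Brca1-null replicate 3. Tnfrsf10b, the mouse TRAIL receptor gene, stayed between 0 and 2.16 FPKM. Eda2r, the ectodysplasin A2 receptor gene, was above 1 FPKM in p53-null replicates 1 and 3 alone, at 4.40 and 2.68, and listed at 0 in all WT libraries.

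Genes of stress and metabolism showed no shared direction. Sesn2, a sestrin that lowers mTORC1 signalling, measured 39.5, 9.54 and 10.3 FPKM in WT, 25.2, 2.54 and 4.63 in p53-null cells and 0.981, 10.6 and 3.90 in p53/Brca1-null. Its relative Sesn1 reached at most 0.356 FPKM in WT, 2.53 in p53-null cells and 2.10 in p53/Brca1-null. Abhd4, a lipase of N-acyl phospholipids, measured 4.26, 51.6 and 1.87 FPKM in WT, 18.3, 14.6 and 30.05 in p53-null cells and 1.01, 16.4 and 5.96 in p53/Brca1-null. Its log2 difference between the null genotypes was -1.76 ± 1.17 (adjusted p = 1.00, limma) and -0.94 without p53/Brca1-null replicate 1, and the ranges overlap. Dcxr, a sugar reductase gene, ran from 0 to 33.6 FPKM and Ak1, an adenylate kinase gene, from 0 to 5.15. 9630033F20Rik, now named Tigar, which lowers glycolysis, was at 10.3 FPKM in WT replicate 3 and at or below 0.660 in the other 8 libraries. Ddit4l, an mTORC1 inhibitor gene, exceeded 1 FPKM in p53/Brca1-null replicate 1 alone, at 2.87.

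Among the DNA repair genes, Rrm2b encodes the p53-inducible small subunit of ribonucleotide reductase and was lower in both null genotypes. It measured 1.41, 3.88 and 2.99 FPKM in WT, 0, 0.410 and 0.468 in p53-null cells and 0.142, 0.986 and 0.00805 in p53/Brca1-null. It was the 1 tested member whose WT libraries all lay above all 6 null libraries, as its passing the filter through WT alone required. The log2 difference was -1.50 ± 0.66 in p53-null (adjusted p = 0.393, limma) and -1.45 ± 0.66 in p53/Brca1-null (adjusted p = 0.394, limma), at levels that reached the test through WT alone. With WT replicate 1 left out Rrm2b no longer passed the filter. Ercc5, an endonuclease of nucleotide excision repair, measured 4.16, 0 and 0 FPKM in WT, 12.3, 10.03 and 2.52 in p53-null cells and 1.63, 0 and 1.67 in p53/Brca1-null. It lay 2.21 ± 0.98 above WT in p53-null (adjusted p = 0.393, limma) with overlap, and 3.0 above it without WT replicate 1. The p53/Brca1-null libraries were all below p53-null, by a log2 difference of -2.07 ± 0.98 (adjusted p = 1.00, limma).

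Polk, a translesion polymerase, measured 0.377, 1.61 and 0.0921 FPKM in WT, 0.600, 8.15 and 7.10 in p53-null cells and 2.09, 0.657 and 0.121 in p53/Brca1-null. Its log2 difference between the null genotypes was -1.46 ± 0.90 (adjusted p = 1.00, limma) and -2.27 without p53-null replicate 1. Xpc, the damage sensor of nucleotide excision repair, measured 0.498, 7.77 and 6.12 FPKM in WT, 0.179, 3.31 and 1.72 in p53-null cells and 0.0943, 1.83 and 3.94 in p53/Brca1-null. With WT replicate 1 set aside, both remaining WT libraries exceeded all null libraries.

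Counted over the tested members, 5 lay above WT without overlap in p53-null (Mdm2, Plk2, Plk3, Gdf15 and Phlda3), or 18.5% against 14.1% of all tested genes. In p53/Brca1-null 5 did so (Mdm2, Gdf15, Bax, Pmaip1 and Phlda3), or 18.5% against 12.7%. Rrm2b was the 1 member lower without overlap in each, or 3.70% against 2.16% and 3.83%. Its passing the filter through WT alone fixed this beforehand, so it is no result about the members. Between the null genotypes 2 were higher in p53/Brca1-null (Gdf15 and Bax, 7.41% against 4.87%) and 3 lower (Btg2, Plk2 and Ercc5, 11.1% against 8.02%). Without WT replicate 1, chosen after the data were seen, 6 members were higher and 4 lower in p53-null (22.2% and 14.8%, against 17.3% and 7.47% of all genes). The 4 lower ones were Bbc3, Btg2, Rrm2b and Xpc. The filter over all 9 libraries was kept here, so Rrm2b again could only be lower. In p53/Brca1-null 5 were higher and 5 lower (18.5% each, against 15.7% and 10.2%), the lower ones being those 4 and Aen. Of the 6 members with a promoter match, Bax was thus higher without overlap in p53/Brca1-null, Bbc3 and Aen were lower once that library was set aside, Cdkn1a and Trp53 overlapped, and 9630033F20Rik was not tested.

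Other genes of the pathway were taken from 3 lists. Of 30 regulators and partners of p53, 21 were tested and none passed by limma in any comparison. Their median log2 differences were 0.55, -0.02 and -0.07 in the 3 comparisons, in the order used above, beside 0.58, 0.41 and -0.16 over all genes. At an unadjusted p under 0.05 there were 0, 2 and 0, where all genes had 11.7%, 12.2% and 4.74%. Those 2, Ppm1d and Rchy1, were higher in p53/Brca1-null than in WT. Ppm1d, the phosphatase WIP1 that switches p53 off and is itself a p53 target, stood at 0 in the 3 WT libraries and measured 0, 0.443 and 8.68 FPKM in p53-null cells and 16.9, 3.26 and 9.83 in p53/Brca1-null (adjusted p = 0.184, limma). Rchy1, the ubiquitin ligase PIRH2, measured 0.494, 3.76 and 1.00 FPKM in WT, 3.90, 11.1 and 12.04 in p53-null cells and 10.9, 8.66 and 26.7 in p53/Brca1-null (adjusted p = 0.304, limma). Rchy1 was above WT in every null library.

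Of 25 further p53 targets, 18 were tested and none passed by limma, with medians of 0.48, -0.09 and -0.67 beside the same medians of all genes. In p53-null libraries 3 were higher than WT at an unadjusted p under 0.05, namely Cd82, Ndrg1 and Trp53i11, against 1022 of all 9503 genes. Trp53i11 passed the filter through null libraries alone, so it had to be higher there. In p53/Brca1-null Ndrg1 was higher than WT at that p, and between the null genotypes Rps27l was higher and Cd82 lower in p53/Brca1-null. Cd82, a metastasis-suppressing tetraspanin, measured 6.57, 69.2 and 41.1 FPKM in WT, 101, 149 and 128 in p53-null cells and 22.9, 31.04 and 40.95 in p53/Brca1-null. Its p53-null libraries lay above all others, as those of Plk2 did, and the log2 difference between the null genotypes was -1.98 (adjusted p = 0.874, limma). Ndrg1, a stress and differentiation gene, measured 32.7, 29.6 and 2.59 FPKM in WT and 30.7 to 105 in the null libraries. Rps27l, a ribosomal protein paralog and p53 target, was abundant, at 558, 672 and 832 FPKM in WT, 694, 542 and 625 in p53-null cells and 1102, 744 and 1076 in p53/Brca1-null. All p53/Brca1-null libraries lay above all p53-null ones, by 0.63 on the log2 scale (adjusted p = 0.988, limma).

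p53 also lowers cell cycle genes indirectly, through p21 and the DREAM repressor complex. Of 17 such genes 6 were tested, and none passed by limma, with medians of 0.50, 1.18 and 0.36 beside 0.58, 0.41 and -0.16 over all genes. At an unadjusted p under 0.05 there were 1, 2 and 0 of the 6, against 11.7%, 12.2% and 4.74% of all genes. The 3 named here, like Ppm1d, passed the filter through null libraries alone, so they had to be higher there. Birc5, survivin, stood at 0 in the 3 WT libraries and measured 18.8, 8.45 and 3.02 FPKM in p53-null cells and 47.9, 17.6 and 0 in p53/Brca1-null (adjusted p = 0.333 and 0.314 against WT, limma). Cdc20, the activator of the anaphase-promoting complex, measured at most 0.0217 FPKM in WT, 4.29, 0 and 1.32 in p53-null cells and 9.70, 5.83 and 0 in p53/Brca1-null. Top2a, topoisomerase II alpha, measured at most 0.0616 FPKM in WT, 1.55, 0.0153 and 0.432 in p53-null cells and 3.61, 4.14 and 0 in p53/Brca1-null. All 3 were listed at 0 in p53/Brca1-null replicate 3, so the higher values did not extend to every library.

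Markers of other cells moved with some of these libraries. The summed level of 8 endothelial markers was 0.0371 and 0.583 FPKM in WT replicates 1 and 2, 94.7 in WT replicate 3, 22.5 to 560 in p53-null cells and 47.2 to 174 in p53/Brca1-null. That of 6 fibroblast markers was 71.1 to 200 FPKM in WT, 81.0 to 136 in p53-null cells and 47.3 to 458 in p53/Brca1-null. That of 6 adipocyte markers was 126 to 1566, 638 to 5301 and 333 to 1438 FPKM, with Lep and Plin1 at 0 in every library. Adipoq was above 0 in p53/Brca1-null replicate 2 alone. Most of the sum in each library was the single gene Fabp4, at 5145 FPKM in p53-null replicate 1. At an unadjusted p under 0.05, 3 of 6 tested endothelial markers were higher than WT in p53-null (median log2 difference 2.90), against 1022 of all 9503 genes. In p53/Brca1-null 3 of 5 fibroblast markers (median 2.63) and 2 of 3 adipocyte markers (median 2.93) were, against 964 of all 9503 genes. The endothelial markers Egfl7 and Esam and the fibroblast markers Col1a1 and Lum passed the filter through null libraries alone. They therefore had to be higher there, and they enter these counts and medians. The summed level of 8 basal markers was 356 to 552, 300 to 1404 and 369 to 535 FPKM. The highest Trp53, Cdkn1a, Phlda3, Plk3, Perp, Ercc5 and Eda2r values all came from p53-null replicate 1. That library also had the highest endothelial, adipocyte (mostly Fabp4) and basal sums. Its luminal sum was the lowest, at 3503 FPKM, against 4465 to 14745 FPKM in the other libraries. The part of these cell types in those values was not tested. Nor was that of the endothelial, fibroblast and adipocyte markers in the other differences from WT.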

How the data were processed

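RNA from YFP-sorted mammary epithelial cells was sequenced in 9 libraries, 3 per genotype, prepared with a low-input mRNA kit per the labels' protocols. The authors deposited 1 table of values on genome build mm9, per the submitters' processing notes; aligner, quantifier and annotation: not given in the sources used here. Values deposited by the authors are taken as FPKM, a unit inferred from values that are not whole and sum to 359976 to 433880 per library. Left out were 92 spike-in rows. Read depth is unknown.

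The filter kept genes that reached 1 FPKM in 3 or more libraries, and they were tested with limma 3.58.1 (R 4.3.3) on log2(FPKM + 1), with an intensity trend and robust moderation, 1 coefficient per genotype and 6 residual degrees of freedom. This scale understates changes of low genes. p-values were adjusted by Benjamini-Hochberg across the 9503 genes and called at 0.05. The fit was tested on simulated data. Members and lists were chosen with earlier results of these data known. Every member is named with its FPKM. Log2 differences are given for Trp53, Cdkn1a and Mdm2 and for the 6 other tested members with the smallest p in each comparison, and of each further list up to 3 genes with the smallest p could be named. Spacer and mismatch limits of the promoter search were chosen after other limits had been seen. Alternatives were a replicate block, only the 6 libraries compared, no trend, quantile normalization, other filters, a pseudocount of 0.1, library weights, detected genes as a covariate, and each library left out. Counts of members without overlap were repeated without WT replicate 1, an alternative added after the data were seen.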

Additional observations from a re-analysis of the deposited data

How the results depend on the processing

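Of 475 values of named members under other settings, 466 kept their direction and their side of the threshold. Part of this was fixed beforehand. A replicate block, only the 6 libraries compared, no trend and other filters cannot change a gene's log2 difference. Nor can leaving out a library of the genotype not compared. No named member passed in the main fit, so keeping its side meant not passing. Gdf15 in p53/Brca1-null against WT passed with quantile normalization (3.76) and without WT replicate 3 (5.10), which makes the count of members called 1 in each, and 0 to 1 over the libraries left out. It was 0 in the other settings, and 0 in all settings of the other comparisons. The log2 difference of Trp53 between the null genotypes turned to 0.17 with quantile normalization, 0.0675 with a pseudocount of 0.1 and 0.30 with library weights, and ranged from -1.47 to 0.99 with each library left out. That of Cdkn1a ranged from -0.72 to 0.0289, turning without p53-null replicate 1. The cause was not tested.

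The median of the members in p53-null against WT fell from 0.75 to 0.0453 with quantile normalization and 0.26 with detected genes as a covariate, and ranged from 0.68 to 1.26 with each library left out, highest without WT replicate 2. In p53/Brca1-null against WT it became -0.0131 with quantile normalization and 0.10 with the covariate, and ranged from 0.34 to 1.10. The median of all genes in p53-null against WT became -0.0406 with quantile normalization and 0.0142 with the covariate. Members lower without overlap were 4 (p53-null) and 5 (p53/Brca1-null) without WT replicate 1, in place of 1, and members higher were 6 and 5, with 2 WT libraries in place of 3. Each count of lower members includes Rrm2b, which the filter over all 9 libraries fixed as lower.

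Over all genes, the count of 1 in p53-null against WT became 0 with only the 6 libraries compared and with the covariate, 22 without trend, 17 with the smaller pseudocount, 2 with library weights and 0 to 8 with each library left out. The count of 24 in p53/Brca1-null against WT became 14 with a replicate block, 7 with only the 6 libraries compared, 50 without trend, 45 with quantile normalization, 56 with the smaller pseudocount, 4 with the covariate and 3 to 73 with each library left out. Between the null genotypes it became 1 with only the 6 libraries compared and 19 with library weights. Deviations of same-numbered libraries correlated between -0.08 and 0.06 in 9 pairs and 2 of 9 libraries correlated best with their own number. No pairing by number was thus seen, though a small shared effect could be missed among libraries that scatter this widely. No read depth was known, so low values have no counting interval.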
